A study of Mus musculus with 48 samples.

Results

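The genes described here are 2 hormones that the liver releases under metabolic stress, Fgf21 and Gdf15, and the 2 genes for the liver's own receiver of the FGF19 subfamily, Klb and Fgfr4. They were chosen by name, as the non-control probes that the array design assigns to these symbols, and are 4 of the 20486 genes that passed the filter on dim probes. All 4 genes passed, through 6 of their 7 probes. Liver RNA was measured in male mice on 48 arrays, with 6 mice in each of 8 groups. The p110αhep-/- mice carried floxed p110α alleles and an albumin-Cre transgene, a design meant to remove the catalytic subunit p110α of phosphoinositide 3-kinase from hepatocytes; the other cells of the liver were not examined here. The p110αhep+/+ mice were of the floxed strain and made p110α. From 12 weeks of age, mice of each genotype received either the CTRL diet D12450J or the HFD D12492, with 60% of calories from fat, for 12 weeks. They were then either fed ad libitum or fasted for 24 h from ZT16, where ZT0 is lights on, and all were killed at ZT16. The comparisons share groups, so their values are not independent of each other.

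FGF21 is a secreted hormone made mainly by hepatocytes. Its gene is known to be switched on in fasting by PPARα together with CREBH, by the amino acid and stress factor ATF4, and after carbohydrate intake by ChREBP. GDF15 is a distant member of the TGFβ superfamily that many stressed tissues release. Its gene is known as a target of ATF4, CHOP and p53, and its receptor GFRAL, which signals through RET, is confined to the hindbrain. KLB (β-klotho) is the co-receptor that FGF21 and the intestinal hormone FGF15 need. FGFR4 is the main FGF receptor of hepatocytes, where with KLB it receives FGF15 and represses bile acid synthesis.

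The Fgf21 probe lies on chromosome 7 (52869305 to 52869364, minus strand, mm9) and the Gdf15 probe on chromosome 8 (73153293 to 73153352, minus strand). The Klb probe used is on chromosome 5 (65774926 to 65774985, plus strand), and the brightest Fgfr4 probe on chromosome 13 (55270033 to 55270092, plus strand). These positions are those of the array design, and the exon or UTR they fall in was not looked up. The bases before the start of the 2 hormone genes are shown because the families of factors named above are known to act there. They are RefSeq sequences of build GRCm38.p6, read on the gene's own strand. The motifs searched, on both strands, were TGATGNAA (the shape of sites of ATF4 with CHOP and its relatives), the E-box CACGTG (part of ChREBP sites and of many others), TGACGTCA (the cyclic AMP element), AGGTCANAGGTCA (the direct repeat of PPARα), GTAAACA (FOXO) and TATAAA. Capitals mark the matches, none of which overlap. For the downstream start of Gdf15, only the 30 bases from -95 to -66 around the match are printed, which do not reach the start.
Fgf21, chr7:45615491-45615740: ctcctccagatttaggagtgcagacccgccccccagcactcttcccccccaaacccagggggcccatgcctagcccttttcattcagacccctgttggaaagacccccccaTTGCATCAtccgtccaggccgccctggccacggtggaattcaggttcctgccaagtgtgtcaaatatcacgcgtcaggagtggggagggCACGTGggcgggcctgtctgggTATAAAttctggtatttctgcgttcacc
Gdf15, upstream start, chr8:70632457-70632706: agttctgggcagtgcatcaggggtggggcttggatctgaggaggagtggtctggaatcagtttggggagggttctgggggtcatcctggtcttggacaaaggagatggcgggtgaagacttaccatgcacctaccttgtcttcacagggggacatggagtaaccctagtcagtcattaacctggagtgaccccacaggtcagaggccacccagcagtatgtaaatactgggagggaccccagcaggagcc
Gdf15, downstream start, chr8:70632161-70632190: cacagggcagggCACGTGtgagcatccagt

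The Fgf21 window held TGATGNAA on the opposite strand at -139 to -132, an E-box at -50 to -45 and TATAAA at -28 to -23, counted back from the start. RefSeq gives Gdf15 a pair of starts 361 bases apart. The 250 bases before the upstream start held none of the motifs, and those before the downstream start held an E-box at -83 to -78. Of 32851 promoter windows of the same 250 bases, 3.45% held TGATGNAA, 6.02% the E-box, 1.55% TGACGTCA, 0.0335% the PPARα repeat, 3.17% the FOXO letters and 12.4% TATAAA. A match says only that the letters are there, and a missing match only that they are not in this window.

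Signals are log2 median spot intensities after correction for the washing batch and quantile normalization. Between 52.3% and 59.3% of spots were well above background on an array, and no spot was saturated. The probes of Fgf21, Gdf15 and Fgfr4 and the main Klb probe were well above background on all 48 arrays. A further Klb probe was so on 21 arrays and was not used. A gene was called when its limma p-value, adjusted over all probes kept, was at most 0.05. Replicate 2 of fed p110αhep+/+ mice on CTRL diet and replicate 3 of fed p110αhep-/- mice on HFD lay nearer to the mean of fed p110αhep-/- mice on CTRL diet than to their own group. Their weights in the fit were 0.58 and 0.35, and without the pair every call on Fgf21 and Gdf15 was as given here. The Pik3ca probe was not lower in p110αhep-/- mice (log2 fold changes from 0.08 to 0.58). It was called higher in CTRL fed (0.39, adjusted p = 4.03e-04), HFD fed (0.58, adjusted p = 2.73e-07) and HFD fasted mice (0.25, adjusted p = 0.0172). Since its place relative to the deleted part is not known here, the probe gives no check of the deletion. Of the hepatocyte markers, 7 of 8 were measured, and their summed signal had group medians between 1403790 and 1457770, so the tissue read as liver.

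Fgf21 had the largest fasting change of the 4 genes on CTRL diet, in each genotype. In p110αhep+/+ mice on CTRL diet, its signal had a lowest value of 7.48, a median of 7.83 and a highest of 8.51 in the fed state, and of 9.0, 9.81 and 10.52 after fasting. The groups did not overlap. In p110αhep-/- mice on CTRL diet it was 6.18, 7.30 and 7.67 in fed mice and 10.48, 10.58 and 10.80 in fasted mice, again with no overlap. Fasting raised Fgf21 by 1.91 ± 0.23 (log2 fold change ± SE, 3.76-fold, adjusted p = 1.56e-08) in p110αhep+/+ mice and by 3.43 ± 0.24 (10.8-fold, adjusted p = 3.79e-15) in p110αhep-/- mice. It was higher in the fasted mouse on 6 of 6 slides in each genotype. Each slide holds 1 array of each group. Only 7 of the 20486 genes had a larger fasting change than Fgf21 in p110αhep-/- mice, and 52 in p110αhep+/+ mice.

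**Figure D1:**
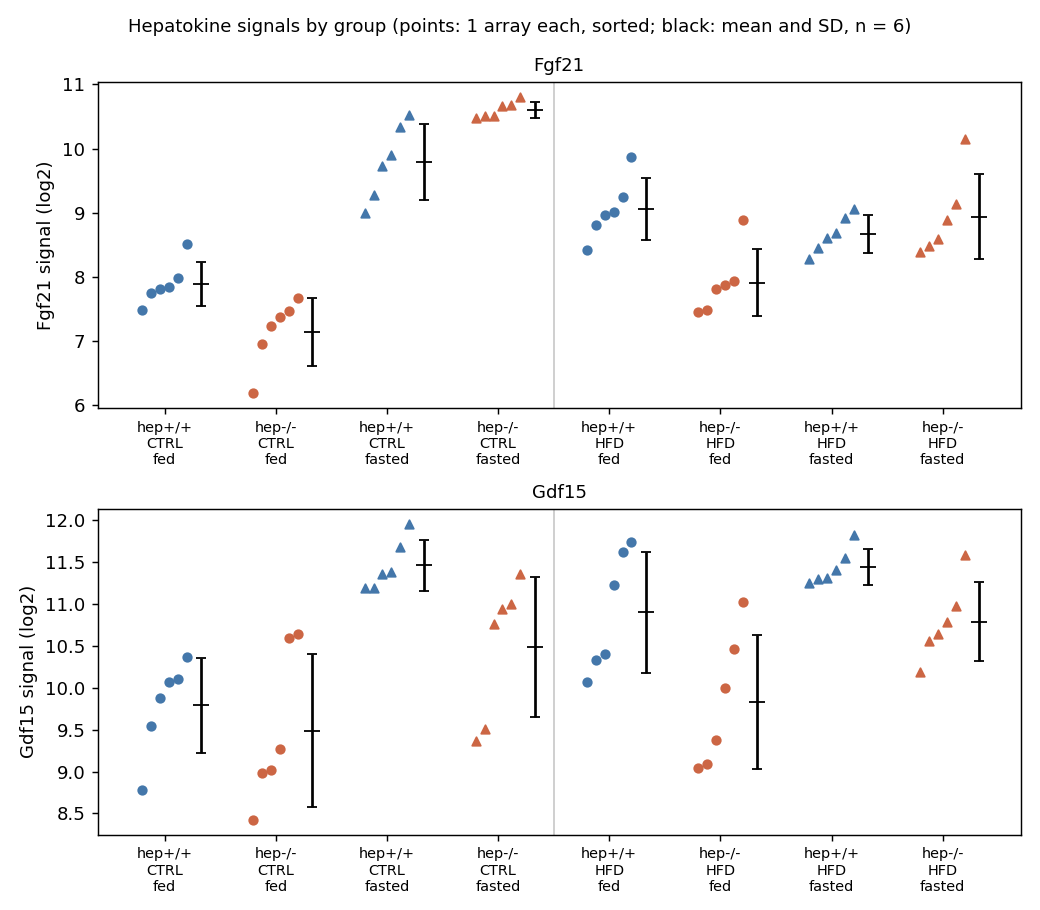
Log2 signal of Fgf21 (top) and Gdf15 (bottom) in the 8 groups of genotype (hep+/+ for p110αhep+/+, hep-/- for p110αhep-/-), diet and nutritional state. Each point is 1 array, sorted within its group (circles fed, triangles fasted), and black marks give the mean and SD of 6 arrays. Fgf21 in fasted p110αhep-/- mice on CTRL diet sits between 10.48 and 10.80, the tightest of the groups.

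The fasting response of Fgf21 was smaller on HFD. In p110αhep+/+ mice on HFD, the lowest, median and highest signals were 8.43, 8.99 and 9.87 when fed and 8.28, 8.64 and 9.06 when fasted. These ranges overlap, and the change of -0.44 ± 0.22 was not called (adjusted p = 0.141), with a 95% interval from -0.90 to 0.01. The p110αhep-/- mice on HFD had signals of 7.46, 7.84 and 8.89 when fed and of 8.39, 8.74 and 10.16 when fasted. Here Fgf21 rose by 1.13 ± 0.26 (2.19-fold, adjusted p = 8.38e-04), in 5 of 6 slides, although the highest fed array lay above the lowest fasted ones. The difference between the diets in the fasting response was itself tested. It was -2.35 ± 0.32 in p110αhep+/+ mice (adjusted p = 1.99e-05) and -2.30 ± 0.35 in p110αhep-/- mice (adjusted p = 1.35e-05).

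Genotype also changed the fasting response of Fgf21. The response was larger in p110αhep-/- mice by 1.52 ± 0.33 on CTRL diet (adjusted p = 0.00539) and by 1.57 ± 0.34 on HFD (adjusted p = 0.00463). The direction of the genotype difference turned between the nutritional states. In fed mice, Fgf21 was lower in p110αhep-/- mice, with log2 fold changes of -0.72 ± 0.24 on CTRL diet (adjusted p = 0.0267) and -1.31 ± 0.24 on HFD (adjusted p = 3.49e-05), and the p110αhep-/- array was the lower one on 6 of 6 slides in each case. In fasted mice on CTRL diet, it was higher in p110αhep-/- mice by 0.80 ± 0.23 (adjusted p = 0.00829, 5 of 6 slides), and on HFD the difference of 0.27 ± 0.25 was not called (adjusted p = 0.417). The ranges of the genotypes overlapped in these 4 comparisons. The call in fed mice on CTRL diet was lost without replicate 3 of the p110αhep+/+ group (-0.54, adjusted p = 0.136) and without replicate 1 (-0.66, adjusted p = 0.0545) or 2 (-0.57, adjusted p = 0.0798) of the p110αhep-/- group.

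HFD acted on Fgf21 in opposite directions in fed and fasted mice. Fed p110αhep+/+ mice had 1.14 ± 0.23 more on HFD (2.20-fold, adjusted p = 2.36e-04), higher on 6 of 6 slides. For fed p110αhep-/- mice the value was 0.55 ± 0.25, which was not called (adjusted p = 0.159), and the difference between genotypes in this diet effect was not called either (-0.59, adjusted p = 0.375). In fasted mice, Fgf21 was lower on HFD, with log2 fold changes of -1.22 ± 0.23 in p110αhep+/+ mice (adjusted p = 2.32e-04) and -1.75 ± 0.25 in p110αhep-/- mice (adjusted p = 3.35e-06). In the p110αhep-/- mice, no fasted array on HFD reached the lowest one on CTRL diet.

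Each washing batch held 3 arrays of every group, and the Fgf21 values kept their sign in both batches except where named. Fasting on CTRL diet gave 1.74 and 2.16 in p110αhep+/+ mice and 3.36 and 3.53 in p110αhep-/- mice, all called, and on HFD 1.25 and 0.94 in p110αhep-/- mice. The genotype differences were -0.59 and -0.87 (CTRL fed), -1.66 and -0.84 (HFD fed) and 1.03 and 0.50 (CTRL fasted). HFD gave 1.51 and 0.70 in fed p110αhep+/+ mice, -0.90 and -1.61 in fasted p110αhep+/+ mice and -1.67 and -1.86 in fasted p110αhep-/- mice. With 3 arrays a group, the genotype difference in CTRL fed mice was called in neither batch, the HFD effect in fasted p110αhep+/+ mice not in the first, and not in the second the genotype differences in HFD fed and CTRL fasted mice, the HFD effect in fed p110αhep+/+ mice and the fasting change of p110αhep-/- mice on HFD. The genotype by diet term in fed mice changed sign (0.03 in the second batch). The genotype by fasting term was 1.63 and 1.37 on CTRL diet and 1.93 and 1.1 on HFD, not called in either batch (adjusted p from 0.0972 to 0.408). The diet by fasting term was -2.41 and -2.31 in p110αhep+/+ mice, not called (adjusted p = 0.0595 and 0.0556), and -2.11 and -2.59 in p110αhep-/- mice, called in both.

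Gdf15 was also called higher with fasting in 3 of the 4 comparisons. In p110αhep+/+ mice on CTRL diet, its lowest, median and highest signals were 8.78, 9.97 and 10.37 when fed and 11.19, 11.37 and 11.96 when fasted, with no overlap. The p110αhep-/- mice on CTRL diet had 8.42, 9.14 and 10.64 when fed and 9.36, 10.85 and 11.36 when fasted. Among those fasted p110αhep-/- mice, 2 arrays stayed within the range of the fed group. Fasting raised Gdf15 by 1.64 ± 0.32 (3.12-fold, adjusted p = 9.72e-05, 6 of 6 slides) in p110αhep+/+ mice and by 1.17 ± 0.33 (2.24-fold, adjusted p = 0.00473, 4 of 6 slides) in p110αhep-/- mice. The difference between the genotypes in this response was not called (-0.48 ± 0.46, adjusted p = 0.629).

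On HFD, Gdf15 had a lowest value of 10.07, a median of 10.82 and a highest of 11.74 in fed p110αhep+/+ mice, and 11.25, 11.36 and 11.82 in fasted ones. The 2 highest fed arrays lay within the narrow range of the fasted ones, and the difference of 0.60 ± 0.31 was not called (adjusted p = 0.161). In p110αhep-/- mice on HFD the signals were 9.05, 9.69 and 11.03 when fed and 10.18, 10.72 and 11.58 when fasted. Gdf15 rose there by 1.08 ± 0.36 (2.12-fold, adjusted p = 0.0212, 4 of 6 slides). That call was lost when replicate 1 (0.93, adjusted p = 0.0646), 2 (0.95, adjusted p = 0.0817) or 6 (0.95, adjusted p = 0.0591) of the fed group or replicate 1 of the fasted group (0.94, adjusted p = 0.0573) was left out.

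Of the 4 genotype comparisons of Gdf15, 1 was called. In fed mice on HFD it was lower in p110αhep-/- mice, with a log2 fold change of -1.20 ± 0.33 (2.30-fold, adjusted p = 0.00459), on 5 of 6 slides. The values in the others were -0.30 ± 0.33 for fed mice on CTRL diet (adjusted p = 0.574), -0.78 ± 0.32 for fasted mice on CTRL diet (adjusted p = 0.0729) and -0.71 ± 0.34 for fasted mice on HFD (adjusted p = 0.103). Without replicate 2 of fasted p110αhep-/- mice on CTRL diet the second of these was -0.99 (adjusted p = 0.0304). Unlike Fgf21, Gdf15 thus had a negative estimate in fasted mice too, but the test of the genotype by fasting term for Gdf15 was not passed on either diet, and the genes were not tested against each other.

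HFD raised Gdf15 in fed p110αhep+/+ mice by 1.07 ± 0.32 (2.09-fold, adjusted p = 0.0120), on 6 of 6 slides. The call was lost without replicate 6 of fed p110αhep+/+ mice on CTRL diet (0.84, adjusted p = 0.0620). In the other 3 diet comparisons the values were 0.16 ± 0.35 (fed p110αhep-/-), 0.02 ± 0.32 (fasted p110αhep+/+) and 0.08 ± 0.34 (fasted p110αhep-/-), with adjusted p of 0.841, 0.979 and 0.927. The difference between genotypes in the diet effect of fed mice was not called (-0.90 ± 0.47, adjusted p = 0.315). Nor was the difference between fasted and fed p110αhep+/+ mice in that effect (-1.05 ± 0.45, adjusted p = 0.232). Within the batches, Gdf15 gave 1.51 and 1.71 for fasting in p110αhep+/+ mice on CTRL diet, 1.37 and 1.26 in p110αhep-/- mice on CTRL diet and 0.69 and 1.5 in p110αhep-/- mice on HFD. The genotype difference in fed mice on HFD was -1.10 and -1.27, and the HFD effect in fed p110αhep+/+ mice 1.24 and 0.85. With 3 arrays a group, neither of these was called in either batch, nor was the fasting change of p110αhep-/- mice on HFD. The fasting change of p110αhep-/- mice on CTRL diet was not called in the second batch.

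Klb, the co-receptor, differed little between groups. Its group medians lay between 9.13 (fed p110αhep+/+ mice on HFD, range 9.02 to 9.27) and 9.73 (fasted p110αhep-/- mice on HFD, range 9.22 to 10.03). The median was 9.23 (9.17 to 9.33) in fed and 9.42 (9.27 to 9.54) in fasted p110αhep+/+ mice on CTRL diet, and 9.22 (9.11 to 9.35) in fasted p110αhep+/+ mice on HFD. In p110αhep-/- mice it was 9.45 (9.38 to 9.67) fed and 9.60 (9.43 to 9.78) fasted on CTRL diet, and 9.30 (9.17 to 9.53) fed on HFD. Fed p110αhep-/- mice on CTRL diet had no array in the range of the matching p110αhep+/+ group. Klb was called higher in p110αhep-/- mice when fed on CTRL diet (0.26 ± 0.08, adjusted p = 0.0180, lost in 5 of 18 alternatives) and when fasted on HFD (0.50 ± 0.08, 1.41-fold, adjusted p = 1.03e-05, lost in 1 of 18 alternatives, with values down to 0.22). It was also called higher with fasting in p110αhep-/- mice on HFD (0.45 ± 0.09, adjusted p = 1.38e-04, lost in 3 of 18 alternatives, down to 0.0958 with the dim probe). The fasting change in p110αhep+/+ mice on CTRL diet was just short of a call (0.20, adjusted p = 0.0506) and was called in 8 of 18 alternatives. No diet comparison and no interaction of Klb was called, although the genotype by fasting term on HFD was called in 3 of 18 alternatives and the HFD effect in fasted p110αhep+/+ mice in 1 of 18. Within the batches the 3 called differences were 0.22 and 0.31, 0.46 and 0.53, and 0.37 and 0.51. Beside the genotype difference in fasted mice on HFD, 5 of 6 endothelial markers were also called higher in p110αhep-/- mice (median 0.37), and 3 of 6 neutrophil and lymphocyte markers lower (median -0.41), whose sums were 2095 to 4210 in p110αhep+/+ and 1492 to 1806 in p110αhep-/- mice. Their part in it was not tested. Without replicate 4 of the fed p110αhep-/- group the difference on CTRL diet was 0.22 (adjusted p = 0.0509). Without replicate 4 of fasted p110αhep-/- mice on HFD, the lowest array of its group, the genotype by fasting term on HFD went from 0.38 (adjusted p = 0.0637) to 0.48 (adjusted p = 0.00332).

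**Figure D2:**
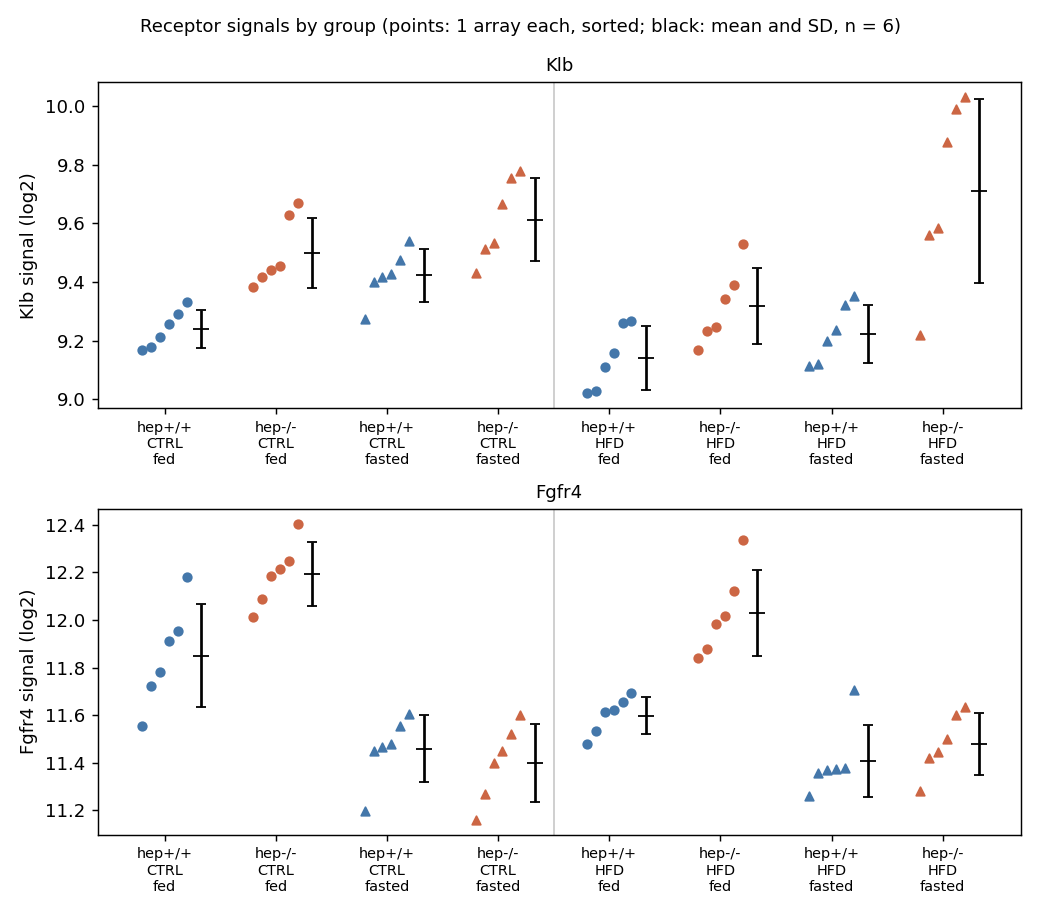
Log2 signal of Klb (top) and Fgfr4 (bottom) in the 8 groups, drawn as 1 point per array with the mean and SD of 6 arrays. Fgfr4 in fed p110αhep-/- mice lies at 11.84 or above, and in all 4 fasted groups at or below 11.70.

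Fgfr4, the receptor, was called lower after fasting in all 4 comparisons, although in p110αhep+/+ mice on HFD the call was lost in 12 of 19 alternatives (adjusted p up to 0.559). Its lowest, median and highest signals on CTRL diet were 11.55, 11.84 and 12.18 in fed and 11.20, 11.47 and 11.61 in fasted p110αhep+/+ mice. For p110αhep-/- mice on CTRL diet they were 12.01, 12.20 and 12.40 in fed and 11.16, 11.42 and 11.60 in fasted mice, with a clear gap between the states. The log2 fold changes were -0.38 ± 0.08 in p110αhep+/+ mice (adjusted p = 1.34e-04) and -0.77 ± 0.08 in p110αhep-/- mice (1.71-fold, adjusted p = 8.49e-11). On HFD, the signals were 11.48, 11.62 and 11.69 fed and 11.26, 11.37 and 11.70 fasted in p110αhep+/+ mice, and 11.84, 12.00 and 12.34 fed and 11.28, 11.47 and 11.63 fasted in p110αhep-/- mice. The p110αhep-/- groups did not overlap. The changes were -0.20 ± 0.07 (adjusted p = 0.0357) and -0.51 ± 0.09 (adjusted p = 1.18e-05). The response on CTRL diet was larger in p110αhep-/- mice by -0.40 ± 0.11 (adjusted p = 0.0298, lost in 7 of 19 alternatives), while on HFD that term was -0.31 ± 0.11 (adjusted p = 0.122).

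In fed mice, Fgfr4 was higher in p110αhep-/- mice, by 0.36 ± 0.08 on CTRL diet (adjusted p = 6.46e-04) and by 0.41 ± 0.08 on HFD (1.33-fold, adjusted p = 6.85e-05, no overlap), on 6 of 6 slides each. In fasted mice the values were -0.03 ± 0.08 (CTRL) and 0.10 ± 0.08 (HFD), with adjusted p of 0.803 and 0.353. With HFD, Fgfr4 was called lower in fed p110αhep+/+ mice (-0.25 ± 0.07, adjusted p = 0.0143). In fed p110αhep-/- mice the value was -0.20 ± 0.08 (adjusted p = 0.116, called in 2 of 19 alternatives), and the genotype by diet term was 0.05 (adjusted p = 0.877). For p110αhep+/+ mice, -0.21 (adjusted p = 0.0534) remained without replicate 3 of fed p110αhep+/+ mice on CTRL diet. Within the batches, fasting gave -0.22 and -0.46 in p110αhep+/+ and -0.80 and -0.74 in p110αhep-/- mice on CTRL diet, and the genotype difference in fed mice 0.47 and 0.29 on CTRL diet and 0.35 and 0.45 on HFD. In the first batch the fasting change of p110αhep+/+ mice (adjusted p = 0.279) and the genotype difference on HFD (adjusted p = 0.0505) were not called, nor in the second the genotype difference on CTRL diet (adjusted p = 0.0765). Further probes measured Fgfr4. The one that overlaps the main probe gave -0.38, -0.19, -0.78 and -0.55 for fasting (p110αhep+/+ CTRL and HFD, then p110αhep-/- CTRL and HFD), and the one designed on another transcript record gave -0.16, -0.10, -0.50 and -0.36. On HFD, the change in p110αhep+/+ mice was not called with either of these probes (adjusted p = 0.0746 and 0.366). With the last probe, neither the change in p110αhep+/+ mice on CTRL diet (adjusted p = 0.142) nor the genotype by fasting term on CTRL diet (-0.34, adjusted p = 0.0842) was called. The fasting call in p110αhep+/+ mice on HFD was lost in 8 of the 12 fits that left out 1 array of either group (-0.20 to -0.18 in those 8), and the genotype by fasting call on CTRL diet in 7 of 24 (-0.39 to -0.35 in those 7).

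**Figure D3:**
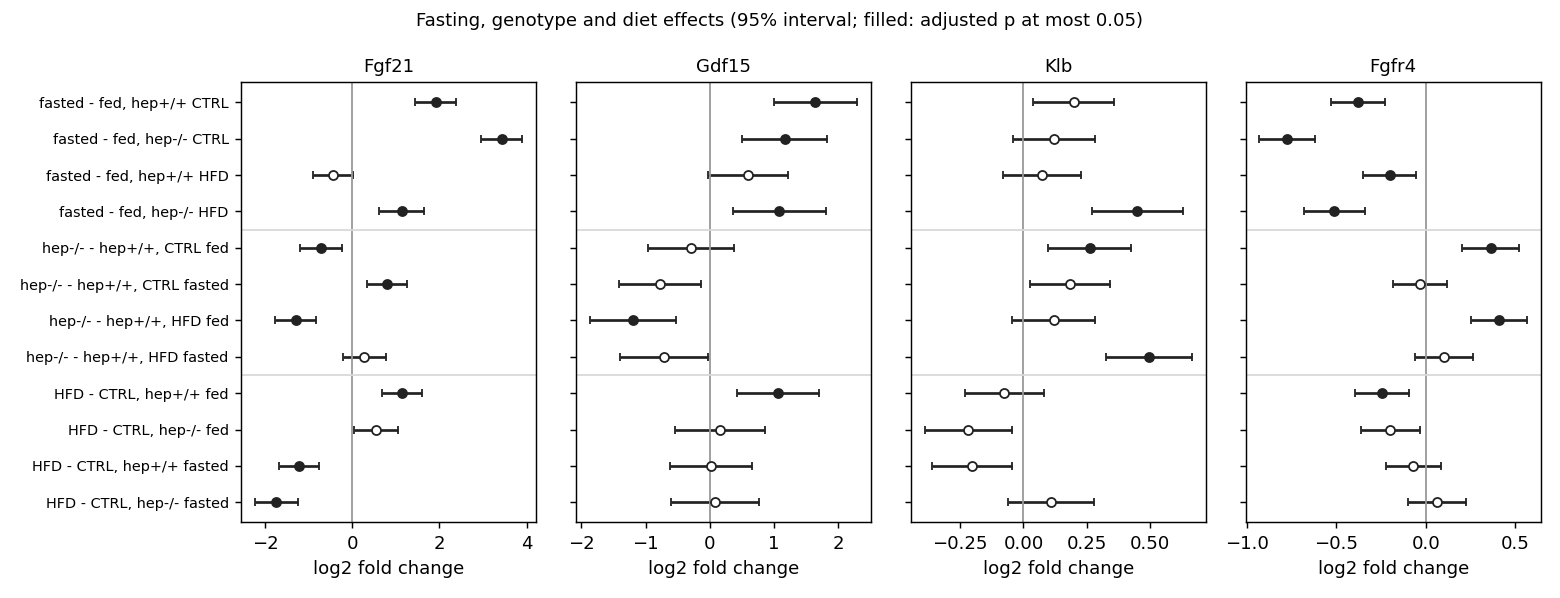
Log2 fold changes of the 4 genes (1 panel each, with its own scale) in the 12 comparisons of fasting, genotype and diet, with 95% intervals. Filled points have an adjusted p of at most 0.05. Fgf21 changes sign between the fed and fasted rows of genotype and of diet, and Fgfr4 is left of 0 in all 4 fasting rows.

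These counts stand beside the share of all genes called. With fasting, 2 of the 4 genes were called higher and 1 lower in p110αhep+/+ mice on CTRL diet, where 16% of all genes were called higher and 16.6% lower. In p110αhep-/- mice on CTRL diet, 2 were called higher and 1 lower (16.4% and 19.2% of all genes). In p110αhep+/+ mice on HFD, 0 were called higher and 1 lower (13.8% and 14.8%), and in p110αhep-/- mice on HFD, 3 were called higher and 1 lower (14% and 14.7%). In the genotype comparisons, 2 were called higher and 1 lower in fed mice on CTRL diet (11% and 10.7%), and 1 was called higher and 0 lower in fasted mice on CTRL diet (12.5% and 12.3%). On HFD, 1 was called higher and 2 lower in fed mice (16.6% and 16.4%) and 1 higher and 0 lower in fasted mice (19.2% and 17.7%).

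In the diet comparisons, 2 were called higher and 1 lower in fed p110αhep+/+ mice (12.4% and 11.6% of all genes), and 0 higher and 1 lower in fasted p110αhep+/+ mice (8.99% and 7.05%). For p110αhep-/- mice, 0 were called in the fed state (5.91% and 6.43%), and 0 higher and 1 lower in the fasted state (5.67% and 5.17%). Among the interactions, the genotype by fasting term was called for 2 of the 4 genes on CTRL diet and 1 on HFD, against 3.97% and 3.49% of all genes. The genotype by diet term was called for 0 of 4 in fed and in fasted mice (3.03% and 5.09%). The diet by fasting term was called for 1 of 4 in each genotype (2.36% in p110αhep+/+ and 8% in p110αhep-/- mice). With 4 genes, these counts are a description and no test.

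By mean level, Fgf21 ran from fasted p110αhep-/- mice on CTRL diet (10.61 ± 0.13, SD, n = 6) through fasted p110αhep+/+ mice on CTRL diet (9.79 ± 0.59), fed p110αhep+/+ mice on HFD (9.05 ± 0.48), fasted p110αhep-/- (8.94 ± 0.66) and p110αhep+/+ mice (8.67 ± 0.29) on HFD and fed p110αhep-/- mice on HFD (7.91 ± 0.52) to fed p110αhep+/+ (7.89 ± 0.34) and p110αhep-/- mice (7.15 ± 0.53) on CTRL diet. Gdf15 ran from fasted p110αhep+/+ mice on CTRL diet (11.46 ± 0.30) and HFD (11.44 ± 0.21) to fed p110αhep-/- mice on CTRL diet (9.49 ± 0.92). Neighbours in the order of each gene were compared by two-sided exact permutation tests of 6 against 6 arrays, 28 tests in all. The pairs were picked by sorting the same levels, and the smallest p that 6 against 6 arrays allow is 0.00216, so a single pair could not pass after Benjamini-Hochberg adjustment over 28. The lowest adjusted p was 0.121, which does not show that neighbours are alike. In the limma fit over all groups, 3 of the neighbours that are also a comparison of the design were called different: the first pair of Fgf21 (genotype difference 0.80, adjusted p = 0.00829), its last pair (-0.72, adjusted p = 0.0267), and fed p110αhep+/+ mice on CTRL diet and HFD for Fgfr4 (-0.25, adjusted p = 0.0143).

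Fgf21 and Gdf15 varied together across mice. Over the 48 arrays Pearson's r was 0.59, and after subtracting each group's mean it was 0.51. The points share arrays, diets and fasting, so r describes these mice and carries no p. Fgf21 and Fgfr4 had r = -0.69 over all arrays and 0.13 within groups, and Gdf15 and Fgfr4 -0.54 and 0.20. Their opposite movement was thus one between groups and not between mice of a group. Klb had r of 0.26 with Fgf21 and -0.04 with Gdf15.

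**Figure D4:**
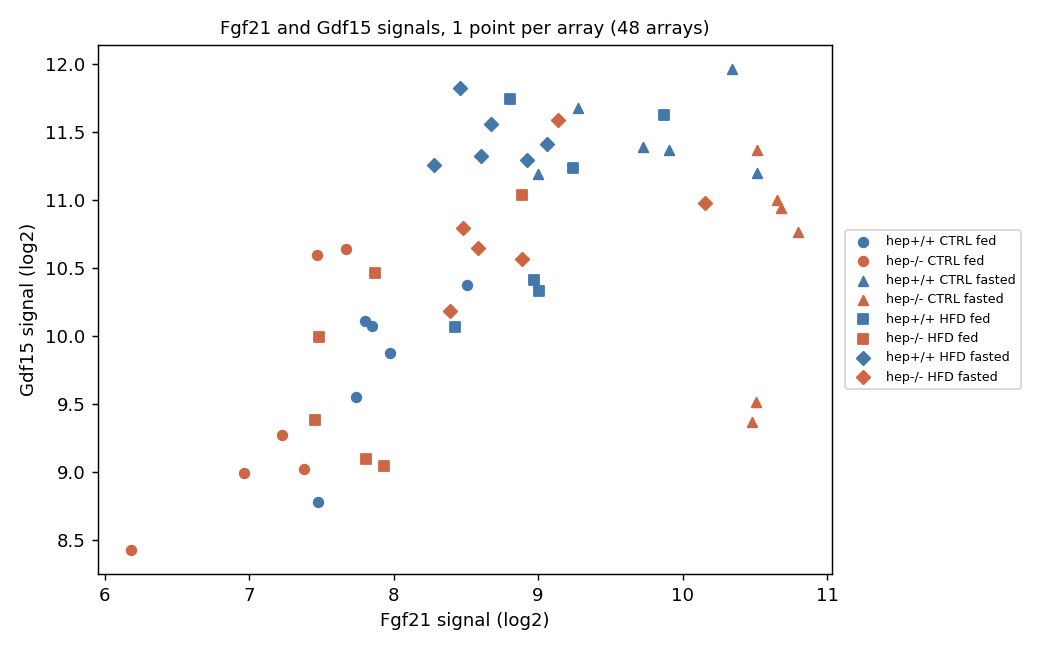
Fgf21 against Gdf15 log2 signal, 1 point for each of 48 arrays, coloured by genotype and shaped by diet and nutritional state. The points rise together (r = 0.59), with 2 fasted p110αhep-/- arrays on CTRL diet at high Fgf21 and low Gdf15.

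The genes whose signals were most like Fgf21 over the 48 arrays were Hilpda (r = 0.88), a lipid droplet protein, Cpt1b (0.86), a carnitine palmitoyltransferase, Arl4a (0.84), Rab30 (0.84) and Acot5 (0.84), a peroxisomal acyl-CoA thioesterase. Within groups their r fell to between 0.26 and 0.60. The most opposite named gene was S1pr1 (-0.84), a sphingosine 1-phosphate receptor. Most like Gdf15 were Gabarapl1 (0.78), which acts in autophagy, the lipid droplet gene Plin4 (0.76), Mknk2 (0.73), Cpeb2 (0.73) and the cell cycle inhibitor Cdkn1a (0.72), and most opposite Gm17296 (-0.78). Most like Klb were Paics (0.84), of purine synthesis, Grtp1 (0.80), Ahcy (0.79), Sult1a1 (0.79) and Cela2a (0.78), and most opposite Tma7 (-0.82), whose r was -0.60 with median scaling, behind Actb (-0.80) and Uchl4 (-0.78). For Fgfr4, Samd1 (0.91) and Tm2d3 (0.88) were the most alike and Odf2l (-0.92) and Myh14 (-0.90) the most opposite.

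Many targets of PPARα act in the oxidation of fatty acids. The list used here also holds other genes, such as Cidea, Plin2 and Apoa4, and the regulators Ppara, Creb3l3 and Ppargc1a. The fasting counts of this and the following lists are to be read against the shares of all genes called higher and lower, which were 16% and 16.6% in p110αhep+/+ mice on CTRL diet, 16.4% and 19.2% in p110αhep-/- mice on CTRL diet, 13.8% and 14.8% in p110αhep+/+ mice on HFD and 14% and 14.7% in p110αhep-/- mice on HFD. Of 28 PPARα genes measured, 22 rose and 0 fell in p110αhep+/+ mice on CTRL diet (median log2 fold change 0.66) and 25 rose and 0 fell in p110αhep-/- mice (median 1.04). On HFD, 13 rose and 4 fell in p110αhep+/+ mice and 9 rose and 2 fell in p110αhep-/- mice (median 0.20 in each), and 11 and 17 of the 28 were not called. The median of all genes was 0.00. The fatty acid hydroxylase Cyp4a14 rose by 3.69 in p110αhep+/+ and 3.83 in p110αhep-/- mice on CTRL diet. Pdk4, which restrains glucose oxidation, rose by 4.13 in p110αhep-/- mice on CTRL diet and 1.24 on HFD. Ppara itself rose by 0.66 and 0.78 on CTRL diet and by 0.31 and 0.39 on HFD (p110αhep+/+ first). Creb3l3, the gene of CREBH, rose by 0.42, 0.50 and 0.19 and was not called in p110αhep-/- mice on HFD (0.07, adjusted p = 0.483).

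Between genotypes, 2 of the 28 PPARα genes were higher and 13 lower in fed p110αhep-/- mice on CTRL diet (median -0.28), and 4 higher and 9 lower on HFD (median -0.11). The shares of all genes called higher and lower, against which the genotype counts of this and the following lists are to be read, were 11% and 10.7% (CTRL fed), 12.5% and 12.3% (CTRL fasted), 16.6% and 16.4% (HFD fed) and 19.2% and 17.7% (HFD fasted). In fasted mice on CTRL diet, 6 were higher and 2 lower (median 0.18), and on HFD 2 higher and 12 lower (median -0.17). In fasted p110αhep-/- mice on CTRL diet, Pdk4 was higher by 2.40 and Ehhadh, of peroxisomal β-oxidation, by 1.36, while Apoa4 was lower (-1.73). Cidea, a lipid droplet protein, was called lower in p110αhep-/- mice in all 4 comparisons (-5.84 to -8.26). Background limits the size of these values, since its probe was well above background on 1, 4, 4 and 5 of their 6 arrays (CTRL fed, CTRL fasted, HFD fed, HFD fasted). The apolipoprotein Apoa4 was lower in fed p110αhep-/- mice, by -2.76 on CTRL diet and -3.11 on HFD. With HFD, 18 rose and 0 fell in fed p110αhep+/+ mice, where 12.4% of all genes were called higher and 11.6% lower, and 21 rose and 0 fell in fed p110αhep-/- mice (5.91% and 6.43%). In fasted mice 2 rose and 4 fell (8.99% and 7.05%), and 0 rose and 15 fell (5.67% and 5.17%), in that order. Fgf21 itself is no member of this list.

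**Figure D5:**
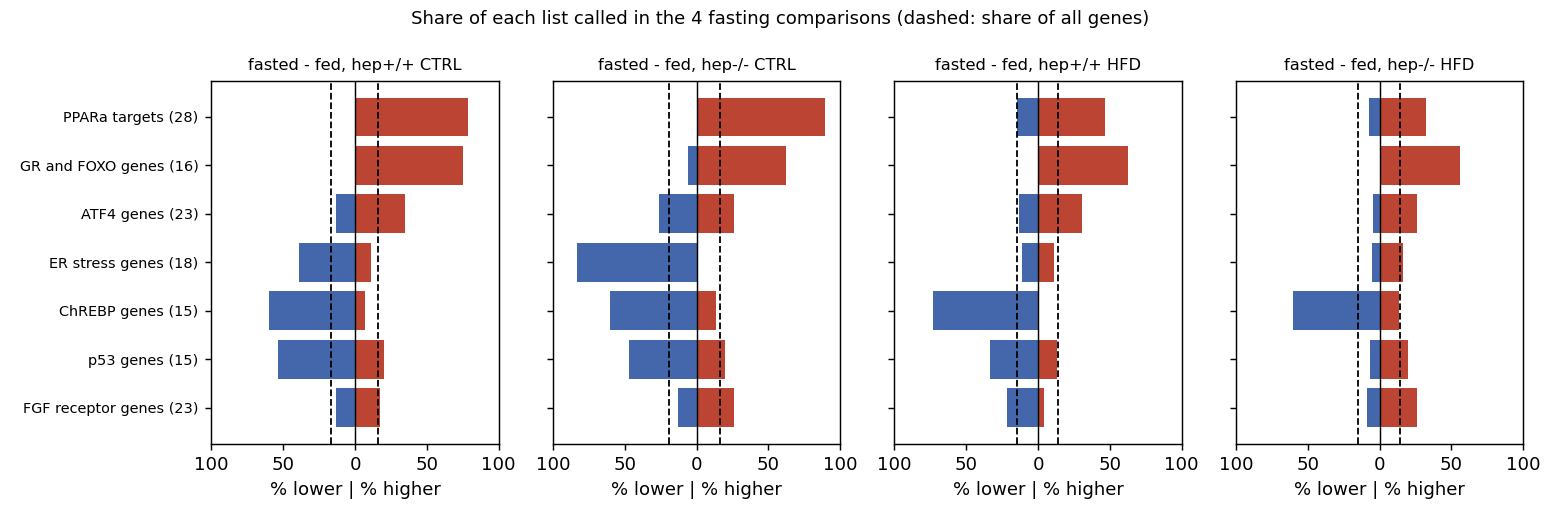
Percent of each gene list called higher (red, to the right) or lower (blue, to the left) in the 4 fasting comparisons, with the number of genes measured in brackets. Dashed lines give the share of all genes called. The PPARα list stands at 22 of 28 and 25 of 28 genes higher on CTRL diet.

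The stress genes did not move as 1 group. Of 23 ATF4 and CHOP genes of the integrated stress response, 8 rose and 3 fell with fasting in p110αhep+/+ mice on CTRL diet, 6 rose and 6 fell in p110αhep-/- mice on CTRL diet, and 7 rose and 3 fell, and 6 rose and 1 fell, on HFD. Their medians lay between 0.01 and 0.06, and the counts that fell on CTRL diet in p110αhep+/+ mice and on HFD were at or below the shares of all genes. Trib3, a pseudokinase induced by ATF4, rose by 1.52 in p110αhep+/+ mice on CTRL diet, and Atf4 transcript fell by 0.40 in each genotype on CTRL diet. Ddit3, the gene of CHOP, fell by 0.67 in p110αhep-/- mice on CTRL diet (adjusted p = 0.00154). In fed mice on HFD, where Gdf15 was lower in p110αhep-/- mice, 4 ATF4 genes were higher and 6 lower, with Ddit4 (-1.46), Atf3 (-0.97) and Nupr1 (-0.80) lower and Cth, of cysteine synthesis, higher (0.89, adjusted p = 9.9e-06). With HFD, 8 rose and 0 fell in fed p110αhep+/+ mice, led by the lipoprotein receptor Vldlr (1.75) and Atf3 (1.05), and 4 rose and 0 fell in fed p110αhep-/- mice. After fasting, HFD raised 5 and lowered 1 in p110αhep+/+ mice and raised 6 and lowered 0 in p110αhep-/- mice. In the order of these diet comparisons, 12.4%, 5.91%, 8.99% and 5.67% of all genes were called higher, and 11.6%, 6.43%, 7.05% and 5.17% lower. For fasted mice and fed CTRL mice, the genotype counts were 2 higher and 2 lower (CTRL fasted), 3 higher and 5 lower (HFD fasted) and 4 higher and 2 lower (CTRL fed), counts near the shares of all genes.

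Of 18 endoplasmic reticulum chaperones and XBP1 or ATF6 targets, 2 rose and 7 fell with fasting in p110αhep+/+ mice on CTRL diet, and 0 rose and 15 fell in p110αhep-/- mice (median -0.81). Sdf2l1 was lower by 2.15 there (log2 fold change -2.15), in the group with the highest Fgf21. On HFD, 2 rose and 2 fell, and 3 rose and 1 fell. Between genotypes, 2, 0, 2 and 8 were higher and 0, 2, 0 and 0 lower in CTRL fed, CTRL fasted, HFD fed and HFD fasted mice. HFD raised 14 and lowered 0 in fasted p110αhep-/- mice, where Fgf21 was lower on HFD (5.67% and 5.17% of all genes). Over the alternatives, the count raised there ranged from 0 to 15. At most 1 was called in either direction in the other diet comparisons, against 5.91% to 12.4% of all genes.

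Of 15 p53 genes, 3 rose and 8 fell with fasting in p110αhep+/+ mice on CTRL diet, 3 rose and 7 fell in p110αhep-/- mice on CTRL diet, and 2 rose and 5 fell, and 3 rose and 1 fell, on HFD. Cdkn1a, the gene of p21, rose by 1.21 and 2.45 on CTRL diet. In fed mice on HFD, 0 were higher and 8 lower in p110αhep-/- mice, among them Cdkn1a (-1.52) and Phlda3 (-0.99), beside the lower Gdf15. In the other genotype comparisons, at most 2 were called in either direction. HFD raised 9 and lowered 1 in fed p110αhep+/+ mice, with Cdkn1a at 1.06 and Phlda3 at 0.93. It raised 8 in fasted p110αhep+/+, 1 in fed p110αhep-/- and 7 in fasted p110αhep-/- mice, with 0 lowered. The shares of all genes were 12.4% and 11.6%, 8.99% and 7.05%, 5.91% and 6.43%, and 5.67% and 5.17%, in that order. Trp53 itself was called lower with fasting in p110αhep+/+ mice on CTRL diet (-0.26), higher by genotype in fasted p110αhep-/- mice on CTRL diet (0.30), and higher with HFD in fasted p110αhep+/+ mice (0.29, adjusted p = 0.0221).

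Of 15 ChREBP genes, 1 rose and 9 fell, and 2 rose and 9 fell, with fasting on CTRL diet (p110αhep+/+ first), and 0 rose and 11 fell, and 2 rose and 9 fell, on HFD. Fasn, the fatty acid synthase, was lower by -4.47 and -3.73 on CTRL diet. In fed p110αhep-/- mice on HFD, 0 were higher and 9 lower, with Acacb at -3.22 and Fasn at -2.63, and on CTRL diet 1 was higher and 5 lower. In fasted mice, 3 were higher and 3 lower on CTRL diet, and 5 higher and 6 lower on HFD. HFD raised 7 and lowered 2 in fed p110αhep+/+ mice (12.4% and 11.6% of all genes), and raised 1 and lowered 5 in fed p110αhep-/- mice (5.91% and 6.43%). In fasted mice it raised 1 and lowered 2 (8.99% and 7.05%), and raised 1 and lowered 6 (5.67% and 5.17%), in that order. The counts of 1, and the 2 lowered in fed p110αhep+/+ mice, are near these shares. Mlxipl, the gene of ChREBP, fell by 0.55 and 0.82 with fasting on CTRL diet.

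Of 16 glucocorticoid receptor and FOXO genes of fasting, 12 rose and 0 fell in p110αhep+/+ mice and 10 rose and 1 fell in p110αhep-/- mice on CTRL diet, and 10 rose and 0 fell, and 9 rose and 0 fell, on HFD. The metallothionein Mt2 rose by 4.0 to 4.74 in the 4 comparisons and Foxo1 by 0.67 to 0.99. Igfbp1, an insulin-repressed binding protein, was higher by 3.28 in fed p110αhep-/- mice on CTRL diet, where Fgf21 was lower. Between genotypes, 6, 3, 4 and 9 were higher and 0, 1, 0 and 0 lower in CTRL fed, CTRL fasted, HFD fed and HFD fasted mice. With HFD, 3 rose and 1 fell in fed p110αhep+/+ mice (12.4% and 11.6% of all genes), and 0 were called in the other 3 comparisons (limma). Those diet comparisons called 5.17% to 8.99% of all genes in a direction.

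The FGF receptor list holds 23 measured genes, Klb and Fgfr4 among them. With fasting, 4 rose and 3 fell in p110αhep+/+ and 6 rose and 3 fell in p110αhep-/- mice on CTRL diet, and 1 rose and 5 fell, and 6 rose and 2 fell, on HFD. The counts in p110αhep+/+ mice on CTRL diet are near the shares of all genes. Fgfr3, another FGF receptor, fell by 1.08 and 1.22 on CTRL diet and by 0.57 and 0.42 on HFD. By genotype in fed mice it was called lower in p110αhep-/- mice (-0.34 on CTRL diet and -0.33 on HFD), where Fgfr4 was called higher, and also in fasted mice on CTRL diet (-0.48, adjusted p = 0.0019), where Fgfr4 was not called. Fgfr1, the receptor through which FGF21 acts in fat, was called higher with fasting on HFD in each genotype (0.52 and 0.57), and Fgfr2 in none of the 4 fasting comparisons. The co-receptor Kl was well above background on 1 array and Spry4 was dim too. In p110αhep-/- mice, 6 were higher and 1 lower (CTRL fed), 6 and 2 (CTRL fasted), 11 and 2 (HFD fed) and 12 and 0 (HFD fasted), with medians of 0.14 to 0.26, where the shares of all genes ran from 11% to 19.2% higher and from 10.7% to 17.7% lower. The ERK feedback gene Spred1 (0.36, 0.36, 0.40 and 0.53 in that order) and the gene Etv4 (0.54 in CTRL fasted and 0.56 in HFD fed mice) were among them. HFD raised 4 and lowered 5 in fed p110αhep+/+ mice (12.4% and 11.6% of all genes). Elsewhere it called at most 2 in a direction, against 5.17% to 8.99% of all genes.

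The bile acid list holds 8 genes, enzymes of bile acid synthesis and regulators such as Nr1h4, Nr5a2 and Hnf4a. It is not a list of genes downstream of FGFR4 and KLB only. With fasting on CTRL diet, 2 rose and 0 fell, and 2 rose and 1 fell (p110αhep+/+ first). On HFD, 3 rose and 1 fell, and 2 rose and 0 fell. The 8 genes are too few to set apart from the shares of all genes. Cyp7a1, the rate-limiting enzyme of bile acid synthesis, fell by 1.74 ± 0.40 in fasted p110αhep-/- mice on CTRL diet (adjusted p = 5.46e-04), the comparison with the largest drop of Fgfr4. Cyp8b1, which makes cholic acid, was called higher there (0.75) and lower with fasting in p110αhep+/+ mice on HFD (-0.81). Nr0b2, the gene of the repressor SHP, rose with fasting in p110αhep+/+ mice on CTRL diet (0.75). In fed p110αhep-/- mice, Cyp7a1 gave 0.41 on CTRL diet and 0.99 on HFD, not called (adjusted p = 0.515 and 0.0554). Between genotypes, 1, 0, 2 and 2 of the list were higher and 1, 0, 0 and 0 lower in CTRL fed, CTRL fasted, HFD fed and HFD fasted mice, near the shares of all genes for a list of 8. With HFD at most 2 were called in a direction, against 5.17% to 12.4% of all genes. Cyp7a1 was among them in fasted p110αhep-/- mice (1.68, adjusted p = 0.00544).

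Of the listed genes for the GDF15 receptor and for proteases, 6 of 8 were measured. Gfral and Ret were well above background on 0 of 48 arrays, so no level is given for the GDF15 receptor. The protease gene Fap was not called in any fasting or genotype comparison (-0.15 to 0.28). The proprotein convertase Pcsk6 was lower in p110αhep-/- mice in all 4 genotype comparisons (-0.38 to -0.59), and Pcsk5 rose with fasting on CTRL diet (0.33 and 0.59). Mmp14, a membrane protease, was higher in p110αhep-/- mice when fasted on CTRL diet (0.58) and fed on HFD (0.53).

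In bulk liver, fewer cells of a type and less RNA per cell cannot be told apart. The summed signal of 5 of 6 bile duct cell markers was 1596 to 3763, 1451 to 2378, 2540 to 5397 and 2314 to 3764 in p110αhep+/+ mice (CTRL fed, CTRL fasted, HFD fed, HFD fasted) and 750.4 to 1064, 558.6 to 734.7, 898.7 to 1132 and 610.1 to 904.9 in p110αhep-/- mice. In the 4 genotype comparisons 3, 4, 4 and 4 of the 5 were called lower and 0 higher in p110αhep-/- mice (medians -0.39 to -0.51), Spp1 the most (-1.76 to -2.63). The sum of 5 of 6 adipocyte markers, with medians of 7766, 9766, 18872 and 30499 in p110αhep+/+ and 959.2, 4362, 2209 and 5812 in p110αhep-/- mice, differed through Cfd, which was well above background on 3 of 6 arrays of fed p110αhep-/- mice on CTRL diet (-4.09 to -5.58), and Plin4 (-0.91 to -2.80), while the defining Adipoq was well above background on 6 of 48 arrays. The part of these cells in the genotype differences of Fgf21 and Gdf15 was not tested. In fasted mice on CTRL diet, where Fgf21 was higher in p110αhep-/- mice, the summed endothelial markers (6 of 6 measured) were 13124 to 17483 in p110αhep+/+ and 17669 to 19866 in p110αhep-/- mice, with 3 called higher and 0 lower. The acinar sum (4 of 9 markers measured) was 11070 to 16394 and 7172 to 9403 in the same groups. Its markers went both ways, with 1 called higher and 2 lower in p110αhep-/- mice. Neither the endothelial nor the acinar sum overlaps between these groups, and the part of either in the Fgf21 difference was not tested. With fasting on CTRL diet, 3 of 5 bile duct markers were called lower in each genotype. In p110αhep-/- mice on CTRL diet the fed and fasted ranges given here of the bile duct and acinar sums (fed acinar sum 10973 to 13535) do not overlap, and nor do those of the adipocyte sum (655.4 to 1114 fed, 2121 to 7229 fasted). Their part in the fasting changes was not tested. Kupffer cell and macrophage markers (8 of 8) had medians of 29765 to 41089, and every pair of groups overlapped. With HFD, 3 of 6 stellate cell markers were called higher and 0 lower in fed p110αhep+/+ mice, where 12.4% of all genes were called higher and where Fgf21 and Gdf15 rose. In fasted p110αhep+/+ mice, 3 of 6 stellate cell and 3 of 6 neutrophil and lymphocyte markers were called higher with HFD, against 8.99% of all genes. The adipocyte sum did not overlap between the diets in p110αhep+/+ mice, at 2468 to 16551 on CTRL diet and 16624 to 21997 on HFD when fed and 7136 to 17082 and 17878 to 53680 when fasted. In fasted p110αhep-/- mice, where Fgf21 was lower on HFD, 2 of 4 acinar markers were called higher with HFD (5.67% of all genes). Fed p110αhep+/+ mice, where Fgf21 and Gdf15 rose, had 2 of 4 called lower with HFD (median -0.49, 11.6% of all genes). Fasted p110αhep+/+ mice had 1 of 4 called lower with HFD (7.05% of all genes). Their part in the diet differences was not tested. Of the pancreatic acinar markers, cells that also make FGF21, 4 of 9 were measured, and Cpa1, Cpb1 and Prss2 were well above background on 0 arrays.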

How the data were processed

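Liver RNA of 48 mice was hybridized to one-colour Agilent arrays on 6 slides in 2 washing batches. The deposited scanner files, made by the authors with Agilent Feature Extraction 10.10.1.1, give the intensity of each spot and its local background, without normalization. A deposited table of log2 values, normalized by the authors, has a median of 7.69 on each array and was used as an alternative. Its filter on probes is not given in the sources used here. Groups came from the sample labels.

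Spots marked as outliers were set to missing (92 to 151 per array), spots of a probe were averaged, and probes well above background on at least 5 of 6 arrays of a group were kept (30793 of 56605). From the log2 median signal, the washing batch was removed with the groups protected, and arrays were quantile normalized. Group means were fitted in limma 3.58.1 (R 4.3.3) with array weights, so fitted changes and differences of unweighted means need not be equal. The brightest probe stood for a gene. P-values were adjusted by Benjamini-Hochberg, and the fit was tested on simulated data.

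The 4 genes and all lists were chosen with earlier results of these data known. Named besides the 4 genes are up to 4 called genes of a list with the largest change, their known regulators, and the genes most and least alike. The labels number the arrays as replicates, and that they are separate mice is taken from the study's description of its groups. The alternatives concerned signal, background, scaling, filter, batch, slide, replicate block, weights, samples, deposited values, probe and arrays left out.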

Additional observations from a re-analysis of the deposited data

Results flagged for a closer look

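Single arrays stood apart in 2 of the 32 combinations of gene and group. Fgf21 in replicate 3 of fed p110αhep-/- mice on HFD was 8.89, where the next highest of that group was 7.93. Fgfr4 in replicate 6 of fasted p110αhep+/+ mice on HFD was 11.70, where the next was 11.38. By Dixon's criterion chance alone marks about 1 group in 20. The first of these arrays is also the one with the lowest weight, and without it and the other array that lay nearer to another group the genotype difference of Fgf21 in fed mice on HFD was -1.40.

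The fasting responses of Fgf21 differed between genotypes by 1.52 on CTRL diet and 1.57 on HFD, and between diets by -2.35 in p110αhep+/+ and -2.30 in p110αhep-/- mice. The fasting response of Fgfr4 differed between genotypes by -0.40 on CTRL diet. These are tests of the difference itself, in limma, adjusted over all probes, and no explanation of them was tested.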

How the results depend on the processing

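No called value of Fgf21, Gdf15, Klb or Fgfr4 changed sign under any alternative. Of the values recomputed for each gene (594, 594, 612 and 630), 576, 550, 576 and 573 kept their direction and their side of the threshold. With no filter, Fgf21 in fed mice on CTRL diet lost its genotype call (-0.75, adjusted p = 0.0523). Within washing batch 1 alone, with 3 arrays a group, calls were lost for Fgf21 in the genotype comparison of CTRL fed mice (-0.59) and in the diet comparison of fasted p110αhep+/+ mice (-0.90), and for Gdf15 with fasting in p110αhep-/- mice on HFD (0.69), by genotype in HFD fed mice (-1.10) and by diet in fed p110αhep+/+ mice (1.24). Within batch 2 alone they were lost for Fgf21 with fasting in p110αhep-/- mice on HFD (0.94), by genotype in CTRL fed (-0.87), CTRL fasted (0.50) and HFD fed mice (-0.84) and by diet in fed p110αhep+/+ mice (0.70), and for Gdf15 with fasting in p110αhep-/- mice on CTRL diet (1.26) and HFD (1.5), by genotype in HFD fed mice (-1.27) and by diet in fed p110αhep+/+ mice (0.85). With only the groups compared in the fit, Gdf15 in fasted HFD mice became called by genotype (-0.71, adjusted p = 0.0103). Fgfr4 with fasting in p110αhep+/+ mice on HFD lost its call in 12 of 19 alternatives (-0.27 to -0.10 over all 19) and for genotype by fasting on CTRL diet in 7 of 19 (-0.57 to -0.28). Klb with fasting in p110αhep-/- mice on HFD lost its call in 3 of 18 (0.0958 to 0.51), and by genotype in HFD fasted mice in 1 of 18 (0.22 to 0.53). In 2 or 3 of 19, Fgfr4 lost it with fasting in p110αhep+/+ mice on CTRL diet and p110αhep-/- mice on HFD, by genotype in CTRL fed and HFD fed mice and by diet in fed p110αhep+/+ mice, at least 1 of them within a batch. Klb by genotype in CTRL fed mice lost its call in 5 of 18 (0.11 to 0.31), and with fasting in p110αhep+/+ mice on CTRL diet gained one in 8 of 18 (0.03 to 0.24). The cause of these shifts was not tested. Within a batch, the smaller number of arrays and the batch itself change together and were not told apart.

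Leaving out 1 array at a time gave ranges of -0.83 to -0.54 for Fgf21 by genotype in CTRL fed mice, and for Gdf15 of -0.99 to -0.59 by genotype in CTRL fasted mice, 0.84 to 1.25 by diet in fed p110αhep+/+ mice, 0.93 to 1.26 with fasting in p110αhep-/- mice on HFD, -0.0753 to 0.11, -0.10 to 0.29 and -0.0203 to 0.42 by diet in fasted p110αhep+/+, fasted p110αhep-/- and fed p110αhep-/- mice, -0.12 to 0.28 for genotype by diet in fasted mice and -0.34 to 0.13 for diet by fasting in p110αhep-/- mice. Further values, all not called, moved by over 1.5 times, among them Fgf21 by genotype in HFD fasted mice (0.0532 to 0.43) and Gdf15 by genotype in CTRL fed mice (-0.56 to -0.12) and for genotype by fasting on CTRL diet (-0.70 to -0.21) and HFD (0.32 to 0.66). Fgfr4 by genotype in CTRL fasted mice ranged from -0.0780 to 0.00602.

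Values near 0 changed sign as follows. Gdf15 by diet in fasted p110αhep+/+ mice was -0.0137 with no filter, -0.0192 without weights and -0.0053 in batch 1. In batch 1, Gdf15 gave -0.23 by diet in fasted p110αhep-/- mice and -0.22 for genotype by diet in fasted mice, Klb -0.0415 by diet in fasted p110αhep-/- mice and 0.0732 for genotype by fasting on CTRL diet, and Fgfr4 -0.12 for genotype by diet in fed mice. In batch 2, Gdf15 gave 0.24 for diet by fasting in p110αhep-/- mice (0.0048 with the slide as a block), Fgf21 0.0267 for genotype by diet in fed mice and Fgfr4 0.0167 by genotype in CTRL fasted mice. The dim Klb probe gave -0.12 with fasting in p110αhep+/+ mice on HFD, 0.0114 and -0.0375 by diet in fed p110αhep+/+ and fasted p110αhep-/- mice, and 0.0083 for genotype by fasting on CTRL diet. Fgfr4 by diet in fasted p110αhep-/- mice was -0.0236 with the processed signal and -0.0134 with the probe for another transcript record, and its genotype by diet term in fed mice was -0.0024 with median scaling and -0.0148 without the 2 arrays that lay nearer to another group.

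The replicate numbers shared by the groups were not treated as pairs of mice. Same-numbered arrays correlated from -0.41 to 0.38 (median 0.02, over 0.1 in 42 of 168 pairs). Arrays with different numbers were not correlated for comparison, so these values cannot exclude a pairing. With the replicate block, fasting gave 1.93 for Fgf21 in p110αhep+/+ and 3.45 in p110αhep-/- mice on CTRL diet. In that fit, Fgfr4 with fasting in p110αhep+/+ mice on HFD was no longer called (adjusted p = 0.0562) and Klb by genotype and fasting on HFD became called (0.41, adjusted p = 0.0480). Of 6048 list counts recomputed, 950 moved by over 1.5 times, 704 of them counts of at most 2 genes. Counts moved the most within batch 2 (53.7%), with a fold change of 1.5 also required (52.8%) and within batch 1 (48.1%). The PPARα counts with fasting on CTRL diet ranged from 18 to 24 (p110αhep+/+) and 21 to 27 (p110αhep-/-), and the chaperones lower with fasting in p110αhep-/- mice on CTRL diet from 7 to 15. The FGF receptor genes higher by genotype on HFD ranged from 0 to 11 (fed) and 0 to 13 (fasted), and the p53 genes higher with HFD in fed p110αhep+/+ mice from 2 to 10. The number of arrays limits the precision, and signals near background are the least certain. Of the genes most and least like the 4, Tma7 moved the most (by median scaling).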
